A study of Homo sapiens with 6 samples.

Results

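The long arm of chromosome 18 from position 36187500 (GRCh38) onwards was examined in ovarian carcinoma cells that express BARD1, set against control cells. The deposited table lists 141 protein-coding genes there besides SERPINB2, which is left out, among 58735 genes in all. The boundary was taken from an earlier look at log2 fold changes along the chromosome in this same comparison. The fold changes below are therefore a description of the stretch, and no p-value is given for its genes.

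RNA came from 3 libraries of BARD1-expressing cells and 3 libraries of control cells, all labelled 48 h. The BARD1-expressing cells were a stable line made by lentiviral transduction of OVCAR8 cells with a plasmid carrying the BARD1 reading frame, and the labels describe the introduced protein as GFP-BARD1. The control cells are labelled as stable cells too, and the labels do not say whether they carry an empty vector or whether either line is 1 clone. The labels disagree on line and material: OVCAR8ip1 appears in the titles, SKOV3ip1 under cell line, and SKOV3ip1 tumors under tissue and source. An effect of BARD1 and any other difference between the transduced and the control cells cannot be told apart.

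The stretch carries genes of unrelated function that are neighbours by position. It holds SMAD2 and SMAD4, which carry signals of the TGF-beta family into the nucleus, and SMAD7, which restrains that pathway. SMAD4 is a classical tumour suppressor of the long arm of chromosome 18. BCL2, which blocks mitochondrial apoptosis, and PMAIP1 (NOXA), which promotes it, lie there as well, as does a cluster of clade B serpin genes.

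BARD1, the binding partner of BRCA1, had 49.0, 44.3 and 45.7 CPM in BARD1-expressing cells, against 17.1, 17.2 and 19.4 CPM in control cells. CPM are read counts scaled to library size, here with TMM factors. The lowest BARD1-expressing library lay above the highest control library (exact two-sided permutation p = 0.1, the smallest that 3 against 3 libraries allow). Libraries held 12744310 to 24349158 counts in BARD1-expressing cells and 21819199 to 23992482 in control cells, and a count of 0 allows up to 0.123 to 0.235 CPM, for counting error only. Of 10 carcinoma markers, KRT8, KRT18, KRT7, PAX8, EPCAM and ERBB2 had at least 255 reads in every library, whereas CDH1 had 12 to 28, WT1 had 5 to 43, and MUC16 and KRT19 had none. PAX8 was called lower, and KRT7 and WT1 were called higher. WT1 had 5, 43 and 11 reads in BARD1-expressing libraries and 10, 7 and 10 in control libraries, so its groups overlapped. Summed fibroblast and pericyte markers ran from 840 to 887 CPM in BARD1-expressing cells and from 1015 to 1083 CPM in control cells, nearly all of it COL1A1. LUM, PDGFRB and ACTA2 were called higher, COL1A1 was called lower, and DCN was at 0. COL1A2, COL3A1 and PDGFRA had at most 4 reads in any library and were not tested. LUM and ACTA2 averaged under 1 CPM in both groups. Endothelial markers summed to 1.28 to 2.06 CPM in BARD1-expressing cells and 0.578 to 0.830 CPM in control cells (KDR was called higher), and leukocyte markers to 0.708 to 1.59 CPM in BARD1-expressing cells and 0.745 to 1.07 CPM in control cells. EMCN and CD3E were at 0. The part of these markers in the results was not tested.

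Of the 141 genes, 89 had enough reads to be tested. In BARD1-expressing cells 75 of them were called lower than in control cells and 1 was called higher (edgeR quasi-likelihood test with Benjamini-Hochberg adjusted p under 0.05), and 13 were not called. Over all 15400 tested genes, 29% were called, 12.4% lower and 16.5% higher. The stretch was chosen by this contrast, so nothing is read from its counts against these shares. Among the 73 whose mean over all 6 libraries reached 5 CPM, here called expressed, the median log2 fold change was -0.98, which is 50.8% of the control level. The expressed genes had a middle range from -1.18 at the lower quartile to -0.82 at the upper quartile. In bulk RNA, fewer cells with a transcript and less transcript per cell cannot be told apart.

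The low level was shared by all 3 BARD1-expressing libraries. Each set against the control mean, they had a median over the expressed genes of -0.95, -1.02 and -0.99 on the log2 CPM scale. Control libraries 1 to 3, each set against the mean of the others, had -0.04, -0.02 and 0.07. The groups did not overlap at 70 of the 73 expressed genes, 69 of them lower and 1 higher, whereas 19.2% of all tested genes did not overlap in the lower direction and 21.7% in the higher direction. The coefficient of variation within a group had a median of 7.98% in BARD1-expressing cells and 5.23% in control cells, whereas expressed protein-coding genes of the other nuclear chromosomes had 6.22% in BARD1-expressing cells and 4.99% in control cells.

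**Figure D1:**
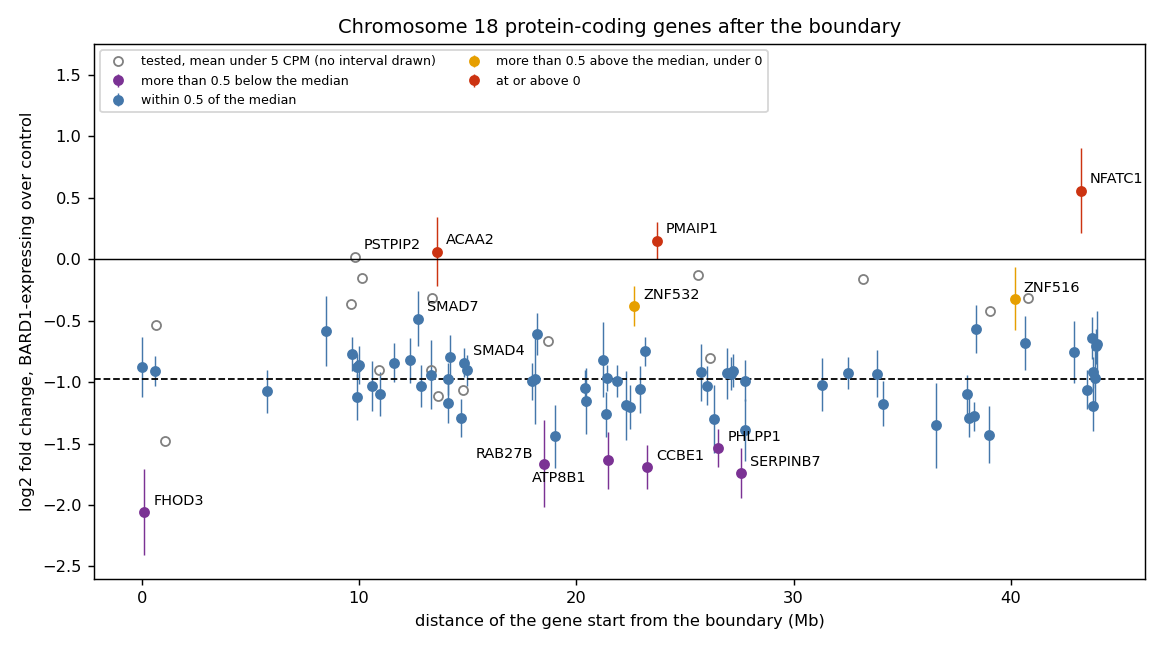
Log2 fold change (BARD1-expressing over control) of each tested gene against the distance of its start from the boundary in Mb. The dashed line is the median of expressed genes, -0.98. For expressed genes, bars are 95% intervals and colours give the distance from that median. Grey open points are tested genes with a mean under 5 CPM, without interval. Among expressed genes NFATC1 (0.56), PMAIP1 (0.15) and ACAA2 (0.06) stand above 0, and FHOD3 (-2.06) is lowest. PSTPIP2 (0.02), under 5 CPM, also lies above 0.

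To sort following from escaping genes, an expressed gene was counted as following when its log2 fold change lay within 0.5 of the median, that is from -1.48 to -0.48. By this measure 62 of 73 genes (84.9%) followed, 6 lay deeper, 2 lay above the band but under 0, and 3 lay above 0. Within 0.25 of the median lay 45 genes. Expressed protein-coding genes of the other nuclear chromosomes had quartiles of -0.12 and 0.16 around their own median of 0.01. A band of 0.5 to either side is wide beside that, so the share that followed does not show a tight spread. FHOD3, RAB27B and NETO1 reached a mean of 5 CPM only through control cells, and NFATC1 only through BARD1-expressing cells, so their difference helped to decide that they were counted. The 95% interval of 19 genes crossed a class limit, so their class is not settled by these libraries. The SD of the log2 fold change over the 73 genes was 0.41, against a median standard error (SE) of 0.09 for a single gene.

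**Figure D2:**
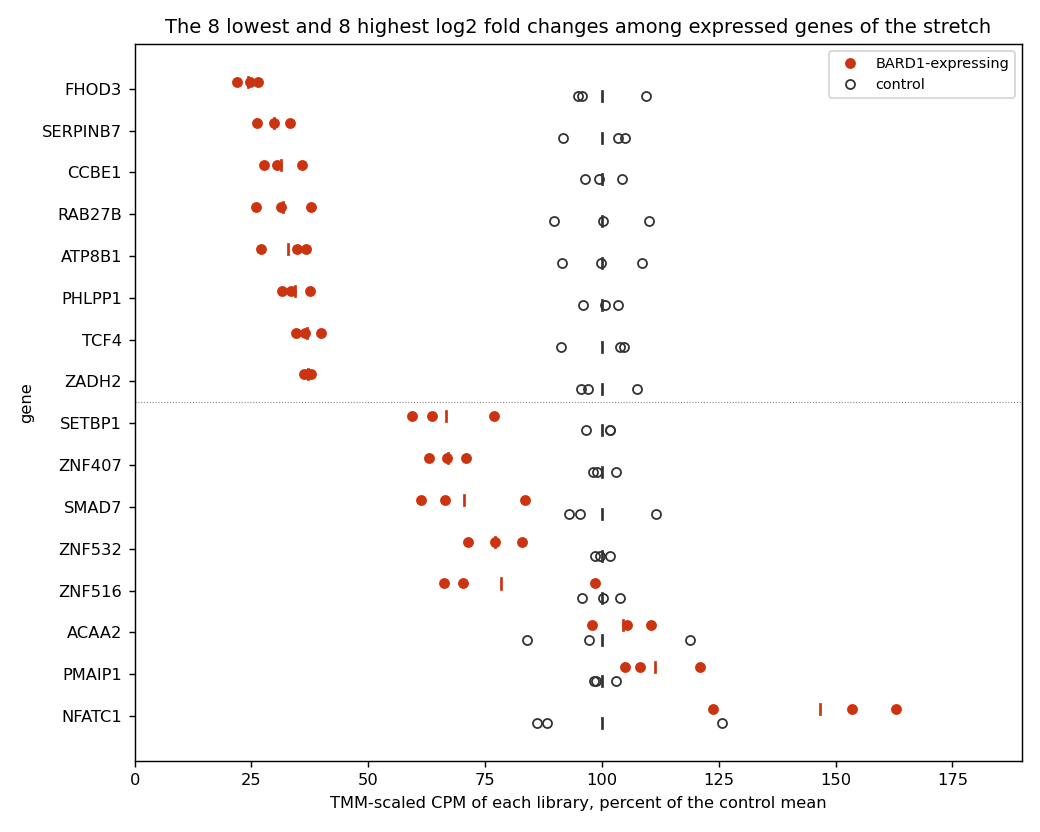
TMM-scaled CPM of each library as a percentage of the control mean for the 8 expressed genes with the lowest and the 8 with the highest log2 fold change; points are libraries and short bars are group means (n = 3 each). Groups are separate for all but ZNF516, ACAA2 and NFATC1, and PMAIP1 is separate with BARD1-expressing cells on the higher side.

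The sequences before the starts of the 3 genes above 0 and of the 2 lowest genes are shown because these genes mark both ends of the range. Each is the 250 bases before the RefSeq start (GRCh38.p14), 5′ to 3′ on the gene's strand, with CG dinucleotides in capitals, and lies within 427 bases of the gene's start in the deposited table. The window of NFATC1 is chr18:79395680-79395929 (plus strand), that of PMAIP1 chr18:59899746-59899995 (plus), and that of ACAA2 chr18:49813534-49813783 (minus). The windows of FHOD3 and SERPINB7 are chr18:36297463-36297712 and chr18:63752807-63753056 (both plus).
NFATC1: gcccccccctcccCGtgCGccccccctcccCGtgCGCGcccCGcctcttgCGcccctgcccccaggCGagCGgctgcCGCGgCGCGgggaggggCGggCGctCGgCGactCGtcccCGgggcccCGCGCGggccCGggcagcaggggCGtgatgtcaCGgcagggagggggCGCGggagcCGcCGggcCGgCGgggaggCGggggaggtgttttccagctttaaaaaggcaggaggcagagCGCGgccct
PMAIP1: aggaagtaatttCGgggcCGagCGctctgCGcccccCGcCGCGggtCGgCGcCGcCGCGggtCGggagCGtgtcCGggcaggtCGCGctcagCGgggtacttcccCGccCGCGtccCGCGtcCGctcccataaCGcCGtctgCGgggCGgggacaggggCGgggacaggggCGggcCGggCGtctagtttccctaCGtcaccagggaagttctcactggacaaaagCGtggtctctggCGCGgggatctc
ACAA2: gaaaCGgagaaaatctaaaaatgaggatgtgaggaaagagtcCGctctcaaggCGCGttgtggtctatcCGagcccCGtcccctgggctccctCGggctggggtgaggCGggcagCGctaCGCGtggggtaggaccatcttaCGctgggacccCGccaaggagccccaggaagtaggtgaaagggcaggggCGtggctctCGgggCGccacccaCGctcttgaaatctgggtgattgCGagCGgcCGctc
SERPINB7: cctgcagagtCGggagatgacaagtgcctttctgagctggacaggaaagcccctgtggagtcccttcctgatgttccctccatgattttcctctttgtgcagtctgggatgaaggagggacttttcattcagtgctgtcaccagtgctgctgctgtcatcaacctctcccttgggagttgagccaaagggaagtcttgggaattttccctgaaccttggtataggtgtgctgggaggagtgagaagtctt
FHOD3: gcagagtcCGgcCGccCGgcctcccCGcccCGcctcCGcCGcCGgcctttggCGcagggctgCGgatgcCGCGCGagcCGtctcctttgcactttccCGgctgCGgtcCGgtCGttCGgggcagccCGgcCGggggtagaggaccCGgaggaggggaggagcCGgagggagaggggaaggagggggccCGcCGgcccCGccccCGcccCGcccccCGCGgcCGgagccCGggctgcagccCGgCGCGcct

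The windows of NFATC1, PMAIP1 and ACAA2 held 34, 36 and 20 CG dinucleotides, and those of SERPINB7 and FHOD3 held 1 and 35. High and low CG counts thus stood at the lower end of the range side by side. The GC box GGGCGG, on either strand and counted with overlaps, was present 1, 4 and 0 times in NFATC1, PMAIP1 and ACAA2 and 0 and 5 times in SERPINB7 and FHOD3. The TATA box TATAAA was not found in any of the 5 windows on either strand, nor was the box CCAAT, the AP-1 motif TGANTCA or the E-box CACGTG. The NFAT core GGAAA was found 3 times in SERPINB7 and 1 time in each of the other windows. RefSeq entries matched 65 of the 73 expressed genes, whose windows held a median of 22 CG dinucleotides. GGGCGG was present in 69.2% of those 65 windows. Over all 35116 windows of the table the median was 11 and GGGCGG was present in 42.6%. The shares with TATAAA, with the CCAAT box, with the AP-1 motif, with the E-box and with the NFAT core were 10.7%, 32.01%, 6.57%, 6.34% and 55.6% of all windows. The 55 following genes with a window had a median of 22 CG dinucleotides, and the 41 matched genes without enough reads had 9.

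NFATC1, a transcription factor switched on by calcium and calcineurin, was the one gene of the stretch called higher. It lies on chromosome 18 at 79395856, far along the stretch. Its libraries had 7.16, 7.60 and 5.77 CPM in BARD1-expressing cells, against 5.86, 4.12 and 4.01 CPM in control cells. The highest control library thus exceeded the lowest BARD1-expressing library slightly. The log2 fold change was 0.56 ± 0.17 (SE), or 147% of the control level with a 95% interval of 116% to 187%. The call was lost without BARD1-expressing library 2 (0.46), control library 2 (0.47) or control library 3 (0.46). Its tested neighbours on both sides were low, namely the flippase gene ATP9B at -0.75 ± 0.12 and the phosphatase gene CTDP1 at -1.06 ± 0.08.

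PMAIP1 encodes NOXA, a BH3-only protein that opposes the survival protein MCL1. It had 45.5, 39.4 and 40.6 CPM in BARD1-expressing cells and 36.9, 37.1 and 38.7 CPM in control cells. All BARD1-expressing libraries lay above all control libraries. The log2 fold change was 0.15 ± 0.07 (SE), 111% of the control level with a 95% interval of 99.9% to 123%, and it was not called. It stayed between 0.08 and 0.19 in every alternative tried. The tested gene before it, CCBE1, was among the lowest of the stretch at -1.69 ± 0.09. The next tested gene after it, RNF152, with under 1 CPM, lay at -0.13 ± 0.45 and was not called, followed by PIGN at -0.92 ± 0.11. These neighbours are not close, with starts 469 kb (CCBE1), 1908 kb (RNF152) and 2005 kb (PIGN) from that of PMAIP1. On the RPKM scale, which divides CPM by gene length in kilobases, PMAIP1 had a mean of 18.7 in BARD1-expressing cells and 16.8 in control cells, the highest level among the genes above 0.

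ACAA2, a mitochondrial thiolase of fatty acid oxidation, had 9.44, 9.002 and 8.36 CPM in BARD1-expressing cells, against 10.1, 7.18 and 8.30 CPM in control cells. The groups overlapped, and the log2 fold change was 0.06 ± 0.13 (SE), or 104% of the control level with a 95% interval of 86.0% to 126%. It was -0.05 without control library 2 and 0.20 without control library 1. On one side its tested neighbours MYO5B and MBD1 lay at -1.11 ± 0.20 and -0.98 ± 0.06, and on the other LIPG, with under 1 CPM, lay at -0.32 ± 0.44 and was not called, followed by RPL17 at -0.94 ± 0.13. A gene under 5 CPM, the F-BAR protein gene PSTPIP2, singled out after its values were seen, had 4.64, 3.18 and 4.58 CPM in BARD1-expressing cells and 3.47, 3.94 and 4.57 CPM in control cells (log2 fold change 0.02 ± 0.19, SE). It sits between EPG5 at -0.77 and ATP5F1A at -0.87.

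Both genes between the band and 0 encode zinc finger proteins. ZNF532 had 29.1, 25.1 and 27.1 CPM in BARD1-expressing cells, against 35.0, 34.6 and 35.8 CPM in control cells, without overlap and at 76.8% of the control level. ZNF516 had 10.1, 15.1 and 10.7 CPM in BARD1-expressing cells and 15.3, 15.9 and 14.7 CPM in control cells. BARD1-expressing library 2 alone reached the control range. The log2 fold change of ZNF516 was -0.32 ± 0.12 (SE) and was not called, but it was called at -0.55 without BARD1-expressing library 2. It was also called with RLE size factors (-0.33), TMM factors without chromosome 18 (-0.33), no filter on low counts (-0.33) and the replicate block (-0.35).

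At the deep end, FHOD3, a formin that assembles actin filaments, had 2.04, 1.82 and 2.19 CPM in BARD1-expressing cells, against 7.96, 7.88 and 9.09 CPM in control cells. Its log2 fold change was -2.06 ± 0.17 (SE), or 24.0% of the control level. SERPINB7, a clade B serpin, had 8.65, 9.87 and 11.02 CPM in BARD1-expressing cells and 30.3, 34.2 and 34.7 CPM in control cells, a log2 fold change of -1.74 ± 0.10. CCBE1 encodes a secreted protein that helps to activate the lymphatic growth factor VEGFC. It had 18.3, 14.2 and 15.6 CPM in BARD1-expressing cells, against 50.8, 49.4 and 53.4 CPM in control cells, or 31.0% of the control level. In these 3 genes the groups were wide apart, and the 95% interval lay wholly below the band.

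RAB27B, a small GTPase of vesicle secretion, lay at -1.67 ± 0.17, the phospholipid flippase gene ATP8B1 at -1.64 ± 0.11 and PHLPP1, a phosphatase that acts on AKT, at -1.54 ± 0.08 (SE). The intervals of these 3 reached into the band. PHLPP1 had 23.0, 25.8 and 21.7 CPM in BARD1-expressing cells, against 69.1, 65.8 and 71.1 CPM in control cells. Next in order, and within the band, were the E-protein gene TCF4 at -1.44 ± 0.12 and the prostaglandin reductase gene ZADH2 at -1.43 ± 0.11. The gene span of FHOD3 overlaps the end of TPGS2, which has more reads and lies on the other strand, and with strand of counting not given their reads cannot be told apart there. KIAA1328 with TPGS2 and TXNL1 with WDR7 overlap on opposite strands as well, whereas HAUS1 with ATP5F1A and TXNL4A with HSBP1L1 share only a few bases. SERPINB8 and HMSD overlap on the same strand, so strand would not separate their reads.

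**Figure D3:**
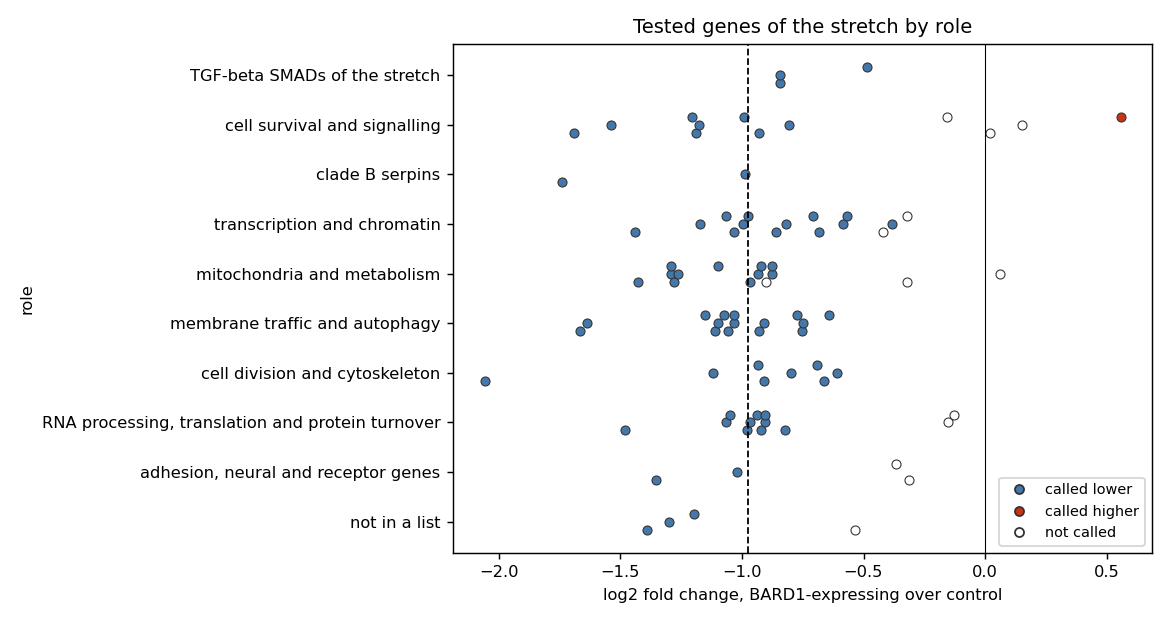
Log2 fold change (BARD1-expressing over control) of the 89 tested genes by role, filled when called; the dashed line is the median of expressed genes, -0.98. All 15 tested genes of membrane traffic and all 8 of cell division were called lower, beside 75 of the 89 in the stretch. NFATC1 is the 1 gene called higher.

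Of all 89 tested genes of the stretch 75 were called lower, against 12.4% of all tested genes. The counts by role stand beside that share, and nothing about a role is read from them. All 3 SMAD genes of the stretch were called lower. SMAD4, the shared partner of the receptor-activated SMADs, had 80.9, 74.5 and 73.4 CPM in BARD1-expressing cells, against 133, 138 and 139 CPM in control cells. SMAD2, a receptor-activated SMAD, had 41.7, 38.3 and 47.4 CPM in BARD1-expressing cells and 73.3, 72.3 and 81.8 CPM in control cells. For neither gene did the groups overlap, and both had a log2 fold change of -0.84 (SE 0.06 for SMAD4 and 0.08 for SMAD2), about 55.8% of the control level. SMAD7, the inhibitory SMAD that the pathway itself induces, lay at the upper edge of the band at -0.48 ± 0.11 (SE), with 13.9, 18.95 and 15.1 CPM in BARD1-expressing cells and 21.1, 21.6 and 25.3 CPM in control cells. It ranged from -0.65 to -0.40 over the alternatives, and the interval crossed the limit of the band.

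Of 12 tested genes of cell survival and signalling, 8 were called lower, 1 higher and 3 not, with a median of -0.96. BCL2 had 10.5, 11.5 and 10.1 CPM in BARD1-expressing cells, against 21.9, 19.8 and 19.8 CPM in control cells, or 52.5% of the control level. BCL2 thus lay near the median of the stretch, and PMAIP1, which acts on the opposite side of apoptosis, lay at 111% of the control level. The ubiquitin ligase gene NEDD4L lay at -0.99 ± 0.06, MALT1, a paracaspase of NF-kB signalling, at -1.20 ± 0.09 and the suppressor of cytokine signalling SOCS6 at -1.18 ± 0.09 (SE). Of 9 clade B serpins in the list 2 had enough reads, SERPINB7 and SERPINB8, with SERPINB8 at -0.99 ± 0.08.

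Among genes of transcription and chromatin 13 of 15 were called lower and none higher, with a median of -0.82. MBD1 and MBD2, which bind methylated CpG sites, lay at -0.98 ± 0.06 and -0.99 ± 0.07, and CXXC1, which brings the SET1 methyltransferase to unmethylated CpG sites, at -1.17 ± 0.08 (SE). MBD2 had 42.1, 37.4 and 37.6 CPM in BARD1-expressing cells, against 73.0, 74.0 and 85.3 CPM in control cells, without overlap. Nearer to 0 than the median lay the zinc finger genes ZNF407 at -0.57 ± 0.09 and ZNF236 at -0.68 ± 0.11, and SETBP1, which encodes a SET-binding protein, at -0.58 ± 0.14.

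Mitochondrial and metabolic genes were called lower in 11 of 14 cases, with a median of -0.95, and ACAA2, LIPG and HDHD2 were not called. ATP5F1A, the alpha subunit of ATP synthase, had 284, 259 and 276 CPM in BARD1-expressing cells, against 481, 504 and 515 CPM in control cells. That is 54.6% of the control level, with a 95% interval of 50.7% to 58.6%. The dipeptidase gene CNDP2 lay at -1.28 ± 0.06, malic enzyme gene ME2 at -1.29 ± 0.07, the haem synthesis gene FECH at -1.26 ± 0.09 and TIMM21, of mitochondrial protein import, at -1.10 ± 0.08 (SE).

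All 15 tested genes of membrane traffic and autophagy were called lower, beside 75 of the 89 in the stretch. Their median was -1.03, with a range from -1.67 to -0.64. The cargo receptor gene LMAN1 had 148, 133 and 136 CPM in BARD1-expressing cells, against 226, 225 and 250 CPM in control cells. The ER oxidoreductase gene TMX3 lay at -0.93 ± 0.06, VPS4B, an ATPase that disassembles ESCRT-III, at -0.91 ± 0.07 and the lipid kinase gene PIK3C3, which starts autophagy, at -1.07 ± 0.08 (SE). Of cell division and cytoskeleton genes 8 of 8 were called lower. HAUS1, an augmin subunit, lay at -1.12 ± 0.09, SKA1, of the kinetochore, at -0.80 ± 0.09 and TPGS2, of tubulin polyglutamylation, at -0.91 ± 0.06 (SE). The call of CCDC68 in that group (-0.66 ± 0.18) was lost without control library 3.

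Of 12 tested genes of RNA processing, translation and protein turnover, 10 were called lower, with a median of -0.93. NARS, the asparaginyl-tRNA synthetase gene, had the highest level per length of the stretch in control cells. It had 135, 132 and 136 CPM (32.8 RPKM on average) in BARD1-expressing cells, against 252, 261 and 274 CPM (64.1 RPKM) in control cells, a log2 fold change of -0.97 ± 0.05 (SE). The spliceosome gene TXNL4A lay at -0.92 ± 0.06 and MEX3C, an RNA-binding ubiquitin ligase gene, at -0.90 ± 0.06. RPL17, a ribosomal protein gene, was listed at only 10.0 ± 2.36 CPM in BARD1-expressing cells and 19.6 ± 2.11 CPM in control cells (SD, n = 3 each). Its annotated span lies within that of the readthrough record RPL17-C18orf32 apart from its outermost bases, so its count is uncertain. RPL17, C18orf32 and their readthrough together came to 11.4 ± 2.35 CPM in BARD1-expressing cells and 22.1 ± 2.08 CPM in control cells (SD, n = 3 each), 51.7% of the control level. Adhesion, neural and receptor genes were mostly without reads, and of the 4 tested, DSEL (-1.02 ± 0.11, SE) and NETO1 (-1.35 ± 0.17) were called lower while MBP and SIGLEC15, both under 2 CPM, were not.

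Genes with few reads scattered more. Of 16 tested genes with a mean under 5 CPM, 6 were called lower (CELF4, MYO5B, ELAC1, C18orf32, TNFRSF11A and CCDC68) and 10 were not called, with a median of -0.48. The intervals of some were wide. For RNF152, at -0.13 with a 95% interval of -1.06 to 0.80, following and escaping could not be told apart at this depth, whereas those of MYO5B (-1.52 to -0.71) and ELAC1 (-1.51 to -0.62) lay wholly under 0. A further 52 genes were not tested, 30 of them without any read in the 6 libraries, and none of the 52 exceeded 12 reads in a library.

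Level and length had little relation to the fold change across the 73 expressed genes, which share the same libraries. Split in 3 by RPKM in control cells, low, middle and high genes had a median log2 fold change of -0.93, -1.04 and -0.94. Split in 3 by gene length, short, middle and long genes had -0.99, -0.98 and -0.93. Pearson's r across genes was -0.06 with log2 RPKM and -0.01 with log2 length (Spearman's rho -0.02 and 0.05), and genes are not independent replicates.

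Along the stretch the low level continued to the end of the annotated genes. In steps of 5 Mb from the boundary the medians were -0.91 (3 expressed genes), -0.87 (6), -0.92 (14), -0.99 (5), -1.05 (14), -1.01 (10), -0.98 (4), -1.29 (6) and -0.71 (11). Each step holds under 20 genes, so no trend is read from them. The last gene, PARD6G, a polarity gene, lay at -0.69 ± 0.13 (SE), and the first 2 genes inside the boundary were the molybdenum cofactor sulfurase gene MOCOS at -0.88 ± 0.12 and FHOD3. Just outside it, ELP2, an Elongator subunit, lay at -0.71 ± 0.06 and the zinc transporter gene SLC39A6 at -0.66 ± 0.07. MOCOS averaged 12.1 ± 2.25 CPM in BARD1-expressing cells and 21.9 ± 1.54 CPM in control cells, and ELP2 averaged 52.3 ± 2.39 CPM in BARD1-expressing cells and 85.2 ± 4.20 CPM in control cells (SD, n = 3 each). The 95% intervals of their log2 fold changes, from -1.12 to -0.64 for MOCOS and from -0.84 to -0.58 for ELP2, overlapped.

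**Figure D4:**
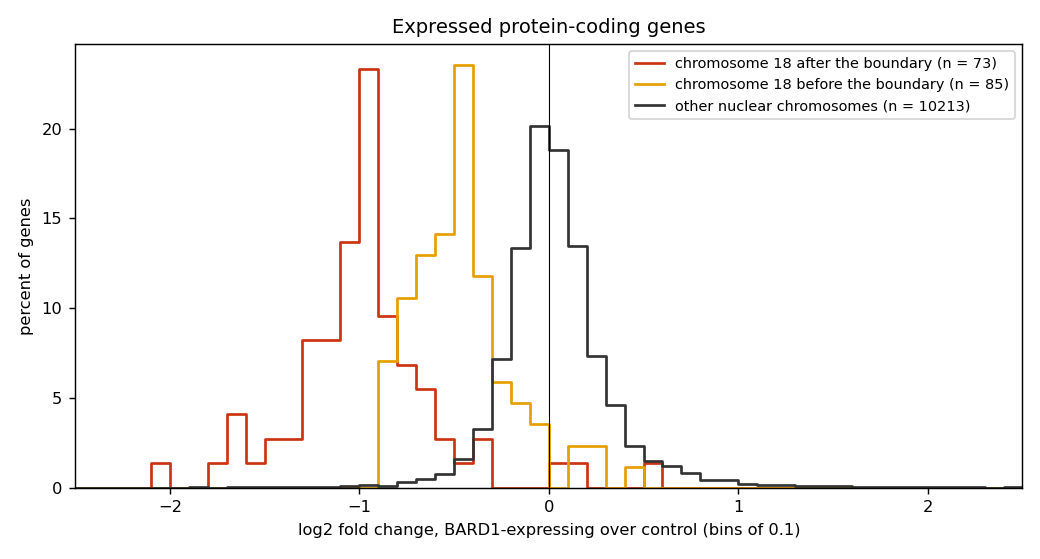
Share of expressed protein-coding genes in bins of 0.1 of the log2 fold change (BARD1-expressing over control, axis limited to -2.5 to 2.5), for the stretch (n = 73), for chromosome 18 before the boundary (n = 85) and for the other nuclear chromosomes (n = 10213). The medians are -0.98, -0.47 and 0.01.

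Set beside it, the 85 expressed protein-coding genes of chromosome 18 before the boundary had a median of -0.47 and ranged from -0.89 to 0.48. Of these 85 genes 75 were called lower and 3 higher. Their groups did not overlap at 75 in the lower direction and at 4 in the higher. Calls and separate groups were therefore common before the boundary as well. The upper limit of the band, -0.48, lay next to their median, so many of these genes fell inside the band too. The 10213 expressed protein-coding genes on the other nuclear chromosomes had a median of 0.01, with chromosome medians from -0.02 to 0.09. The boundary was chosen from these values, so the step is described and not tested.

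Partners that work with products of the stretch but are encoded elsewhere had medians near that of all genes. Over 6 lists of such partners, 14 of 101 tested genes were called lower and 17 higher, with a median of 0.04. Of those 17, 10 belong to the TGF-beta pathway list. All tested genes had a median of -0.00268, with 12.4% called lower and 16.5% higher. Of 15 ATP synthase genes outside the stretch none was called lower and 1, ATP5MC2, was called higher (0.20 ± 0.05, SE). Of 9 other HAUS and SKA genes 3 were called lower and SKA2 was called higher, with 174, 167 and 179 CPM in BARD1-expressing cells and 109, 116 and 109 CPM in control cells. Of those called lower, HAUS5 lost its call without BARD1-expressing library 1 (-0.19) or control library 1 (-0.21), and HAUS2 without BARD1-expressing library 3 (-0.21) or control library 3 (-0.19). Of 22 partners of MBD2 and CXXC1 complexes 2 were called lower and 2 higher (the call of MBD4, at -0.23, was lost without BARD1-expressing library 2 or 3 or control library 3), and of 15 partners of PIK3C3 and VPS4B 4 lower and 1 higher. Each of these lists has a median between -0.07 and 0.10.

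In the TGF-beta pathway outside the stretch 10 of 28 tested genes were called higher and 4 lower, with a median of 0.14. Over all tested genes 16.5% were called higher and 12.4% lower. The list was chosen with earlier results known, and its difference from that share was not tested. SMAD6, an inhibitory SMAD like SMAD7, had 7.94, 9.33 and 8.56 CPM in BARD1-expressing cells, against 0.495, 0.350 and 0.692 CPM in control cells (log2 fold change 4.07 ± 0.22, edgeR adjusted p = 1.50e-12). The 2 inhibitory SMADs therefore stood on opposite sides of the control level. The co-receptor gene ENG was called higher at 1.90 ± 0.13 (SE, edgeR adjusted p = 3.01e-11), as was SMAD9 at 1.46 ± 0.22. SMAD3, the close relative of SMAD2, was named after its values were seen. It was called higher at 0.50 ± 0.07 (SE, edgeR adjusted p = 1.27e-05). SMAD5 was called higher too (0.49 ± 0.06), and SMAD1 was not called (0.02 ± 0.13). SMAD5 lies on chromosome 5, which had the highest chromosome median of expressed protein-coding genes (0.09). In the BCL2 family BCL2L1, which encodes the survival protein BCL-XL, had 108, 121 and 124 CPM in BARD1-expressing cells, against 81.6, 83.7 and 79.5 CPM in control cells (log2 fold change 0.53 ± 0.06, edgeR adjusted p = 2.06e-07). Of the 12 tested family members BID was also called higher and HRK lower, but the call of BID was lost in 11 alternatives and that of HRK in 5.

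**Figure D5:**
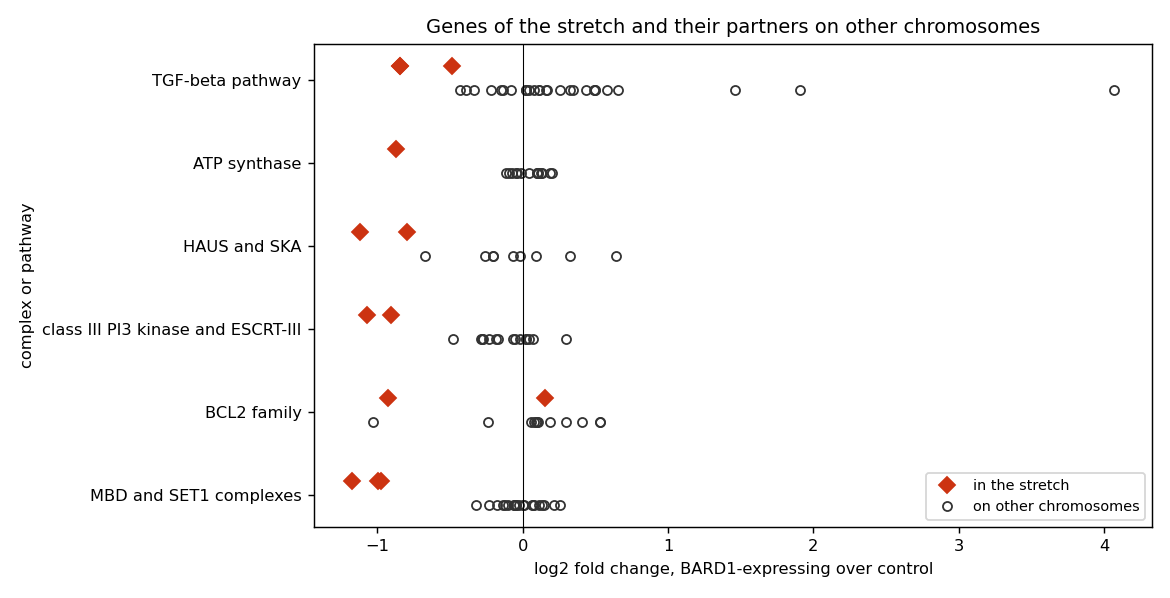
Log2 fold change (BARD1-expressing over control) of genes of the stretch (diamonds) and of their tested partners on other chromosomes (circles), by complex or pathway. Apart from PMAIP1 at 0.15 the genes of the stretch lie between -1.17 and -0.48, and SMAD6 stands at 4.07.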

How the data were processed

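RNA selected with poly(T) was sequenced in 6 libraries. Per the labels' protocols, cDNA was primed with random hexamers and the second strand is described for directional and for non-directional libraries, so the strand setting of the counting was not given in the sources used here. The authors deposited 1 table of unnormalized counts, with each gene's position and length. HISAT2 2.0.5 and featureCounts 1.5.0-p3 are named per the submitters' processing notes, as are the build GRCh38 and DESeq2 1.20.0, with no role, order or options. Reads shared by overlapping or near-identical genes could have been split or dropped.

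The test was edgeR 4.0.16 under R 4.3.3 (filterByExpr, TMM, robust quasi-likelihood F test on group, Benjamini-Hochberg over 15400 genes). Fold changes are log2, with BARD1-expressing over control. Replicate pairs differed by more than sampling noise (chi-square per degree of freedom 3.41 to 8.11), and all 6 libraries were kept. The labels call replicates biological without saying whether cultures were separate, so p-values measure the spread between libraries. The test was also run on counts simulated with the spread estimated from these libraries, which cannot check whether the replicates were independent. Alternatives were DESeq2 1.42.0, RLE, other filters, TMM without chromosome 18, the replicate block and leaving out each library. Promoters came from RefSeq by symbol.

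Genes to name were the SMADs, the 8 lowest and 8 highest expressed genes, called-higher genes, boundary genes, the 3 genes of highest RPKM per role and up to 3 called partners per list. Other genes were chosen after their values were seen. Members, lists and tests were chosen with earlier results of these data known.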

Additional observations from a re-analysis of the deposited data

How the results depend on the processing

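Of the 76 called genes of the stretch, 74 had the same call in all 12 other fits. Over those fits without a library left out, the counts called lower (75 or 76), the 1 called higher, the 62 genes within the band and the 3 above 0 changed by 1 at most. Leaving out 1 library gave 74 to 76 genes called lower, 0 to 1 called higher, a median of -1.004 to -0.94, 60 to 62 within the band and 2 to 3 above 0. Without any 1 control library 71 genes counted as expressed, against 73 with all libraries. The number called higher was 0 without BARD1-expressing library 2, control library 2 or control library 3. ACAA2 turned to -0.0545 without control library 2, and ran from -0.0545 to 0.20 over the single libraries left out. With expressed genes taken from 1 CPM, 69 of 84 lay within the band and 4 above 0 (median -0.95). With the limit of 5 CPM, a band of 0.3 held 49 of 73. The genes called over all tested ranged from 3317 to 4755, and the partners encoded elsewhere that were called from 23 to 34, against 31 with all libraries. Same-numbered libraries had r of -0.11, -0.03 and -0.01, and differently numbered ones ran from -0.11 to 0.15. The values show no pairing by number but cannot exclude that same-numbered libraries were handled together. With the replicate block 76 genes of the stretch were called lower and 1 higher, 3990 over all genes, against 4460 without it. Without the filter 111 genes of the stretch could be tested. Depth limits the genes under 5 CPM.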

Other observations

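Transcripts of other kinds in the same stretch were tested for 13 of 434 annotated genes. Of these, 7 were called lower in BARD1-expressing cells and none higher, with a median log2 fold change of -0.92 and a range from -2.22 to -0.13. They share libraries, contrast and position with the protein-coding genes, so they are a description as well. LINC02582 was the one with many reads, at 151 CPM on average in BARD1-expressing cells and 243 CPM in control cells (-0.69 ± 0.05, SE). The long noncoding RNA gene LINC00909 had 4.23 CPM in BARD1-expressing cells and 8.73 CPM in control cells on average (-1.02 ± 0.14, SE), and its span overlaps that of ZNF407. The remaining 11 averaged under 5 CPM in both groups.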
